A study of Mus musculus with 2 samples.

Results

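Enteroendocrine cells are the hormone-secreting cells of the gut epithelium. This report describes 10 of their genes in mouse colon: the granins Chga, Chgb, Scg2, Scg3 and Scg5, the L cell hormones Pyy, Gcg and Insl5, the enterochromaffin cell enzyme Tph1 and the D cell hormone Sst. The genes were chosen by name, and a probe was taken as theirs where its RefSeq accession belonged to the gene. All 10 were found, with 12 probes, among 22905 genes that could be named on the arrays. RNA of whole colon was compared between Villin-Cre mice and Villin-Cre; EP4flox/flox mice (EP4 cKO), all 8 weeks old by the methods. Both genotypes carry the Villin-Cre transgene, which drives Cre recombinase in intestinal epithelial cells, and in EP4 cKO mice the recombinase also deletes floxed sequence of Ptger4, which encodes the prostaglandin E2 receptor EP4. EP4 is thus lost from the epithelium and kept in the stroma. By the labels, RNA from 3 pools of colon was put together for each array, and there was 1 array per genotype. No difference below therefore has a replicate or a test, and each describes these arrays only.

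Granins are acidic proteins that fill the dense-core granules of most endocrine cells and of neurons, where they take part in granule formation and in the storage of hormones. Each endocrine cell type adds its own product. L cells make peptide YY, the glucagon-like peptides cut from the Gcg precursor and, in the colon, insulin-like peptide 5. Enterochromaffin cells make serotonin with Tph1, and D cells make somatostatin, which inhibits the other endocrine cells. EP4 signals through the stimulatory G protein, cAMP, protein kinase A and the transcription factor CREB, and the cAMP response element is the sequence that CREB binds.

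The upstream sequences of the granins and hormones are shown first because 3 of the 10 genes hold the complete cAMP response element, TGACGTCA, within 250 bases before their start. These are Sst, Chgb and Scg2, and the element lies from -48 to -41 in Sst, from -72 to -65 in Chgb and from -68 to -61 in Scg2, counted from the transcription start of RefSeq. Chga holds only the half-site TGACG, from -44 to -40. The 130 bases before each start are printed from RefSeq (build GRCm38.p6), 5′ to 3′ on the strand of the gene, with the matches to the element or its half-site in capitals.
Sst, chr16:23890845-23890974, minus strand: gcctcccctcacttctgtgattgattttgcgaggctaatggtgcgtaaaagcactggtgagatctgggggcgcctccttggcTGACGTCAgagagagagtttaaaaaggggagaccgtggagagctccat
Chgb, chr2:132781512-132781641, plus strand: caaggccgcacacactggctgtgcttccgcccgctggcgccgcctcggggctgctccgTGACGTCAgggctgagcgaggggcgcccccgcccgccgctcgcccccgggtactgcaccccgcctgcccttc
Scg2, chr1:79440027-79440156, minus strand: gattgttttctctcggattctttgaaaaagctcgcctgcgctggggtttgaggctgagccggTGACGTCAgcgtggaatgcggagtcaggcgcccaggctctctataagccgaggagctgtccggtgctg
Chga, chr12:102554811-102554940, plus strand: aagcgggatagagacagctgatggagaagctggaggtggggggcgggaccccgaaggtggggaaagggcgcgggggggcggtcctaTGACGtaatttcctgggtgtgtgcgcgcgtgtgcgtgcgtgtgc

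Over all 32851 promoter windows of the table, searched on both strands over the same 250 bases, 1.55% held TGACGTCA and 17.8% held the half-site TGACG, which is part of the complete element. All 10 genes had a window and 13 windows were theirs, since Pyy, Insl5 and Tph1 have 2 starts each. The half-site was found in 7 of the 10 genes: Chga, Chgb, Scg2, Scg3, Scg5, Tph1 and Sst. It was found in none of the windows of the L cell hormones Pyy, Gcg and Insl5. Counted by window, as for the shares over all windows, 3 of the 13 held TGACGTCA and 8 of the 13 the half-site. The E-box CAGATG, of the kind bound by the endocrine transcription factor Neurod1, was present in 14.4% of all windows and in 2 of the 13. Gcg held it at -139 and at -83, and 1 of the windows of Insl5 held it at -178. A match is a description of the letters and does not show that a factor was bound there.

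The authors' scaling was repeated: on each array the processed signals were brought to a trimmed mean of 2500, and the result is called the normalized signal. The log2 ratio is that of EP4 cKO over Villin-Cre. A signal counts as measured where the scanner software marked it as well above background, and a gene is called higher or lower where it passed 2-fold, the threshold of the methods. Of the 56593 gene probes, 45.4% were measured in Villin-Cre RNA and 51.6% in EP4 cKO RNA, with no saturated spot. The ± after a signal is the error that the scanner software gave for the spot, and the ± after a ratio was propagated from it. It is the software's own estimate for a spot, not a spread measured between spots or between mice. For bright probes it was nearly constant, with 0.204 for the ratios of Chga, Chgb, Pyy and Insl5. Among 165 probes with 10 spots the median SD of the log2 ratio between spots was smaller, at 0.034. Ptger4 itself had a log2 ratio of -0.14 ± 0.20 by its brighter probe (6227 and 5661) and of 0.59 ± 0.23 by its dimmer one (393 and 592). Neither probe was lower past 2-fold in this whole tissue. Whether either of them lies in the floxed sequence is not known here, so Ptger4 does not check the labels, and every direction below rests on the labels of the arrays.

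All 10 genes were measured on both arrays, and all 10 had a lower normalized signal on the array labelled EP4 cKO. In 7 of them the difference passed 2-fold: Sst, Chga, Scg3, Tph1, Insl5, Chgb and Scg5. None was more than 2-fold higher. Among all 14676 genes with a value, 7.98% were more than 2-fold lower and 4.89% more than 2-fold higher. Among the 12805 genes that were measured on both arrays, as all 10 were, these shares were 6.26% and 4.05%. The median log2 ratio of the 10 genes was -1.25, against -0.10 over all genes with a value and -0.15 over those measured on both arrays. Pyy, Scg2 and Gcg were the 3 genes within 2-fold. Whether fewer endocrine cells or less RNA per endocrine cell lay behind a lower signal cannot be told apart in RNA of whole tissue.

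**Figure D1:**
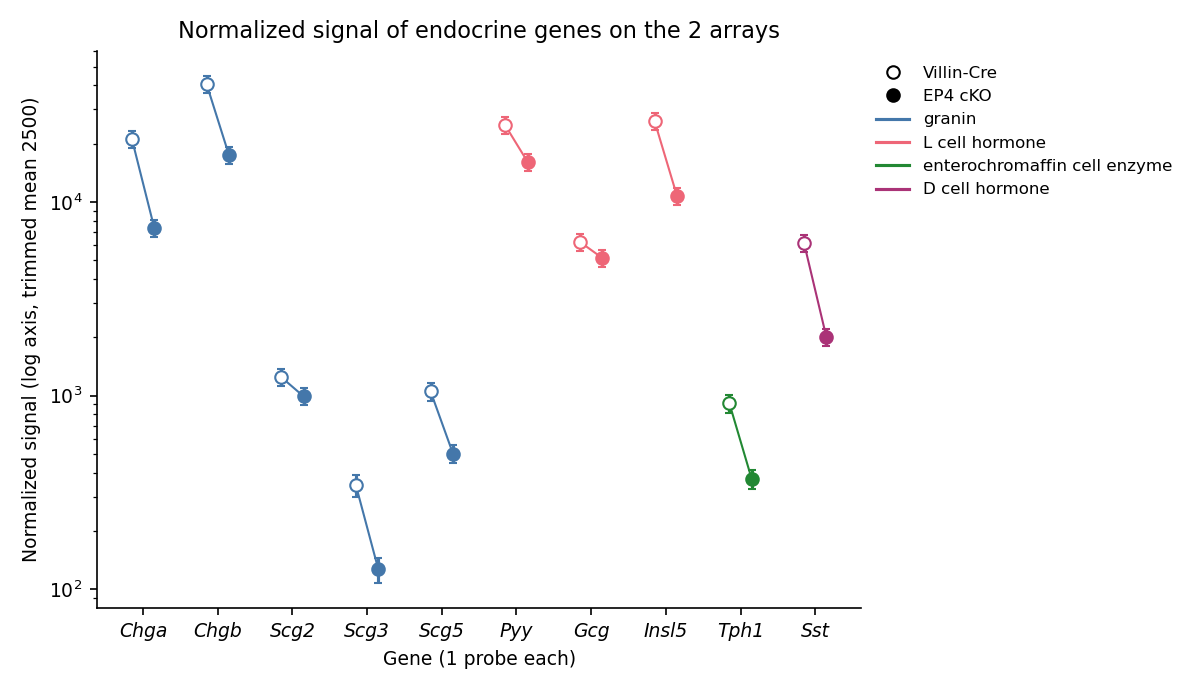
Normalized signal of each gene on the array labelled Villin-Cre (open circles) and the array labelled EP4 cKO (filled circles), on a log axis, 1 probe per gene; bars are the error given by the scanner software, and lines join the arrays. All 10 lines slope down, those of Scg2, Gcg and Pyy least, and heights are not comparable between genes because probes differ.

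Among the granins, Chga, the chromogranin most used as a marker of endocrine cells, had the largest difference. Its signal was 21112 ± 2111 in Villin-Cre colon against 7326 ± 733 for EP4 cKO, that is 34.7% of the control, and the log2 ratio was -1.53 ± 0.20. Only 2.09% of the genes measured on both arrays had a lower ratio. Chgb, the related chromogranin B, went the same way. It was the only one of the 10 genes whose probe was printed in several spots. Its signal was 40576 ± 929 in Villin-Cre colon against 17447 ± 630 for EP4 cKO (SD over 10 spots), and the spots did not overlap between the arrays, with 39413 as the lowest in Villin-Cre colon against 18215 as the highest for EP4 cKO. The log2 ratio was -1.22 ± 0.05 over the spots, from -1.32 to -1.14. The spots belong to 1 hybridization each and show the precision of the reading, not that of the genotype.

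The other granins were dimmer. Scg3, which binds chromogranin A and helps to bring it to the granule, had 344 ± 45 in Villin-Cre colon against 127 ± 18 for EP4 cKO, a log2 ratio of -1.44 ± 0.28. Its probe lay among the dimmest 10% of the genes measured on both arrays, whose own median was -0.40. Scg5, the chaperone of the prohormone convertase Pcsk2, had 1050 ± 109 and 501 ± 52, a log2 ratio of -1.07 ± 0.21, which is just past 2-fold and by less than the error. Scg2, the precursor of secretoneurin, stood apart from these. Its signal was 1245 ± 127 in Villin-Cre colon against 989 ± 100 for EP4 cKO, or 79.5% of the control, and its log2 ratio of -0.33 ± 0.21 was 1.20 ± 0.29 above that of Chga. Within the granins the ratio thus ran from -1.53 to -0.33, with a median of -1.22, and 4 of 5 were more than 2-fold lower. The complete cAMP response element was present both in Scg2 and in Chgb and Sst, which differed from Scg2 in ratio. Whether the element had a part in any of these ratios was not tested.

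The L cell hormones did not share 1 ratio. Insl5, a relaxin-family peptide made by L cells of the colon, had 26056 ± 2606 in Villin-Cre colon against 10723 ± 1072 for EP4 cKO, a log2 ratio of -1.28 ± 0.20. Pyy, whose product slows motility and appetite, had 24824 ± 2483 and 16067 ± 1607, which is 64.7% of the control and a log2 ratio of -0.63 ± 0.20. Gcg had 6215 ± 622 and 5128 ± 513, which is 82.5% of the control and a log2 ratio of -0.28 ± 0.20, within the middle of all genes, since 38.8% of the genes measured on both arrays had a lower one. Insl5 was thus the only L cell hormone past 2-fold on the array labelled EP4 cKO. The log2 ratio of Gcg was 1.003 ± 0.29 above that of Insl5, and that of Pyy was 0.65 ± 0.29 above it, whereas Gcg and Pyy differed by 0.35 ± 0.29. These gaps between probes of the same arrays do not depend on a common scaling factor.

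Tph1, which makes the first and rate-limiting step of serotonin synthesis in enterochromaffin cells, had 914 ± 97 in Villin-Cre colon against 371 ± 40 for EP4 cKO. Its log2 ratio was -1.30 ± 0.22, or 40.6% of the control. This value comes from 1 of 3 probes. The other two, 1 of them for the same RefSeq transcript, were not well above background on either array (64.3 and 28.4, and 30.8 and 13.8) and give no ratio. Sst had the largest difference of the 10 genes. Its signal was 6147 ± 615 in Villin-Cre colon against 2003 ± 201 for EP4 cKO, 32.6% of the control, with a log2 ratio of -1.62 ± 0.20, and 1.77% of the genes measured on both arrays had a lower one. The D cell hormone was lower than the L cell hormone Gcg by 1.34 ± 0.29 and lower than Pyy by 0.99 ± 0.29 on the log2 scale.

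**Figure D2:**
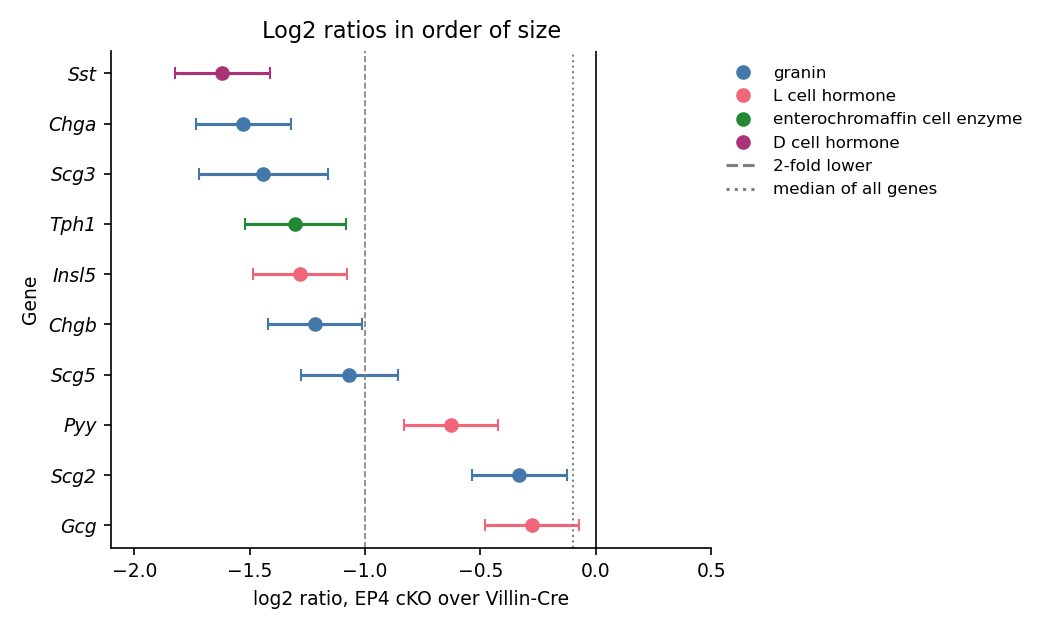
Log2 ratio of EP4 cKO over Villin-Cre for each of the 10 genes in order, with 1 point per gene; bars are the error propagated from the scanner software, the dashed line marks 2-fold lower and the dotted line the median of all genes at -0.10. The 7 genes from Sst (-1.62) to Scg5 (-1.07) lie past 2-fold, and Pyy, Scg2 and Gcg lie between -0.63 and -0.28.

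In the order of the ratios, the neighbours from Sst through Chga, Scg3, Tph1, Insl5 and Chgb to Scg5 differed by 0.02 to 0.15. This is less than the error of each gap by the scanner software. Only Chgb had several spots from which a spread could be measured, so the order of these genes is not settled. The widest gap, 0.44 ± 0.29, lay between Scg5 and Pyy. The genes below it in size were 2 hormones of L cells and 1 granin. This split depended on the processing. With normexp and quantile normalization Scg5 (-0.71) lay beside Pyy (-0.68), and Scg3 (-0.49) differed less between the arrays than Pyy. After loess the widest gap lay between Pyy (-0.59) and Gcg (-0.19). Set against each other as groups, the 5 granins (median -1.22) and the 4 hormones with Tph1 (median -1.28) differed by 0.06, which is smaller than the error of a single ratio, and this difference took the other sign with loess (-0.08) and with normexp and quantile normalization (-0.01). The spread lay within both groups and not between them.

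The ratio of all genes moved with their brightness, so each gene was also set beside others as bright. For the bright probes of Chga, Chgb, Insl5 and Pyy, genes of like signal (deciles of the genes measured on both arrays) had a median log2 ratio of -0.04. It was -0.11 for genes like Gcg, -0.13 like Sst, -0.18 like Scg2 and -0.23 like Scg5 and Tph1. All 10 ratios lay below the median of the genes of their own brightness. After loess on mean signal, which takes out this trend, the ratios ran from -1.503 for Sst to -0.15 for Scg2, and Scg5 (-0.86) was within 2-fold.

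**Figure D3:**
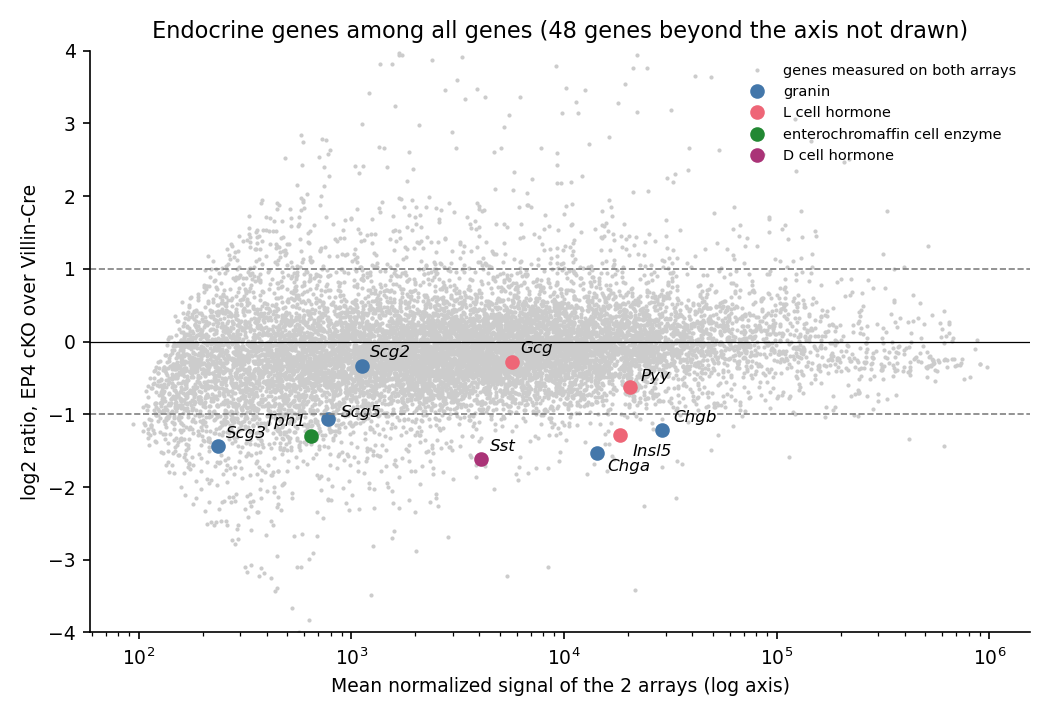
Log2 ratio of EP4 cKO over Villin-Cre against the mean normalized signal of the 2 arrays on a log axis, for genes measured on both arrays (grey points) and the 10 endocrine genes (coloured by cell type or class); dashed lines mark 2-fold, and 48 genes beyond 4 on the log2 axis are not drawn. Sst, Chga, Insl5 and Chgb lie below the main cloud at signals where few genes pass 2-fold, and Gcg and Scg2 lie in it.

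Scaling decided how many genes passed 2-fold. Other scalings moved the median of the genes measured on both arrays. It rose by 0.10 to 0.16 on the log2 scale with the 75th percentile, loess, a trimmed mean over all spots or normexp. With the median of epithelial markers at 0, described below, it moved by -0.21. After scaling to the 75th percentile, after loess and with a trimmed mean over all spots, 6 genes passed 2-fold. Of all genes, 6.28%, 6.02% and 6.53% were then lower. Normexp background correction with quantile normalization left 4, with 2.79% of all genes lower: Sst, Chga, Insl5 and Chgb. The dim genes came closer to 0 there, with Scg5 at -0.71, Tph1 at -0.70 and Scg3 at -0.49. Scaling to the E1A spike-in spots, chosen after seeing the data, raised all genes by 1.18, and no endocrine gene then passed 2-fold. Sst was at -0.44 and Chga at -0.35, while Scg5 (0.11), Pyy (0.55), Scg2 (0.84) and Gcg (0.90) turned positive, with a median of 1.01 over all genes. Relative to the median of the genes measured on both arrays, each of the 10 genes was lower as reported. This also held after loess and with normexp and quantile normalization, with Sst from -1.499 to -1.467 and Gcg from -0.19 to -0.13 (log2). The other settings could not test it. A factor common to an array moves genes and median alike, and the filters and probe choice left the 10 ratios unchanged.

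**Figure D4:**
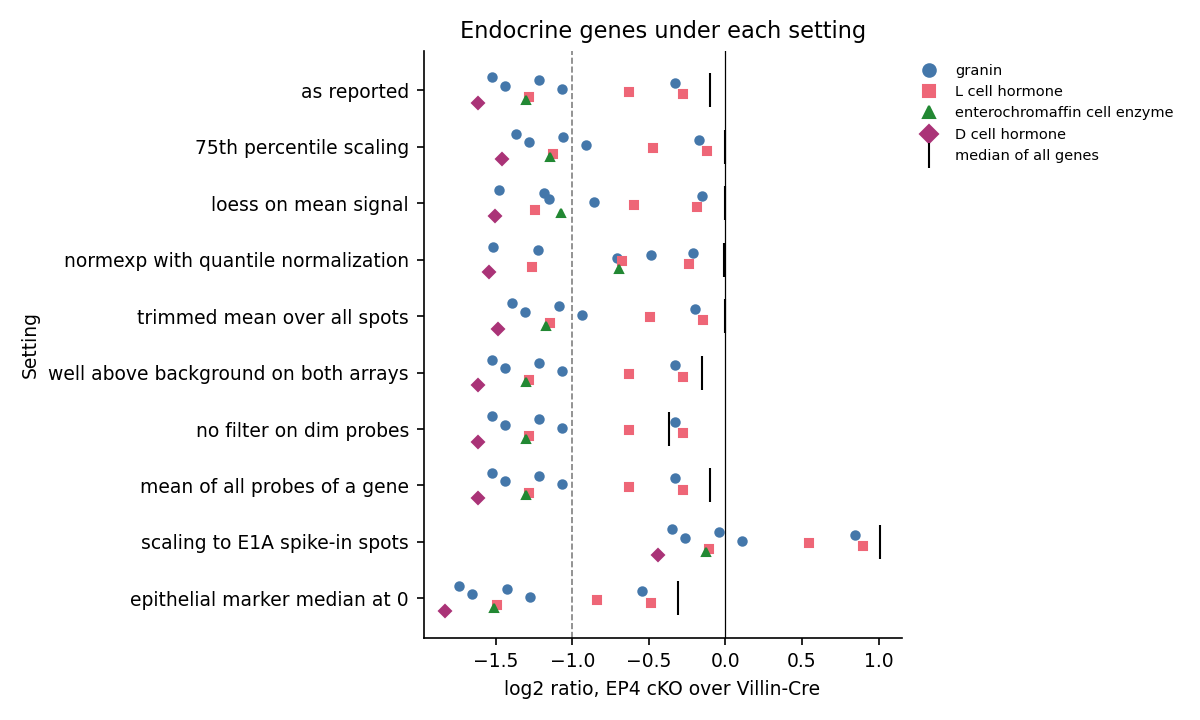
Log2 ratio of EP4 cKO over Villin-Cre for the 10 genes (symbols by class) under each setting of scaling, filter and probe choice, with the median of all genes as a black tick; the dashed line marks 2-fold lower. Under each setting Sst and Chga lie farthest to the left, and scaling to the E1A spots moves the genes and the median of all genes to the right together.

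The machinery that makes and stores the hormones was looked at through a list of 34 genes of prohormone processing and secretory granules. Of 25 genes with a value, 4 were more than 2-fold lower, 2 were more than 2-fold higher, and the median log2 ratio was -0.09, close to that of all genes. Resp18, a protein of endocrine granules, had 2123 in Villin-Cre colon against 621 for EP4 cKO, a log2 ratio of -1.77 ± 0.21. Syt13, an atypical synaptotagmin, had 869 and 334 (-1.38 ± 0.22). Cpe, the carboxypeptidase that trims the ends of cut prohormones, had 6527 and 2973 (-1.13 ± 0.20). Ddc, the decarboxylase of the second step of serotonin synthesis, had 52087 and 24127 (-1.11 ± 0.20), and its dimmer probe had -0.92. No other gene of the list was past 2-fold lower. Cpe and Ddc were just within 2-fold after scaling to the 75th percentile (-0.98 and -0.95), and Syt13 after normexp with quantile normalization (-0.79).

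The prohormone convertases Pcsk1 (422 and 237, -0.83 ± 0.23) and Pcsk2 (189 and 136, -0.47 ± 0.34) stayed within 2-fold, and so did Pcsk1n, the precursor of a convertase inhibitor (-0.89 ± 0.20). The monoamine transporter of enterochromaffin cells, Slc18a1, had 428 and 339, a log2 ratio of -0.33 ± 0.24, unlike Tph1 and Ddc. The genes past 2-fold in the other direction were Rab3b, a GTPase of vesicle release (355 and 1158, 1.71 ± 0.23), and Gch1, which makes the cofactor of Tph1 and also that of nitric oxide synthase (11438 and 27644, 1.27 ± 0.20).

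Other peptide hormones of the gut gave few measurable signals and no shared direction. Of 17 genes 9 had a value, with a median log2 ratio of -0.05, and none of those measured on both arrays passed 2-fold. Sct, the secretin gene, had 5337 and 5933, a log2 ratio of 0.15 ± 0.20. Ghrl, of ghrelin, had 451 and 825 (0.87 ± 0.22, with 0.88 by a second probe and no fold above 1 by another). Cck was measured only on the array labelled EP4 cKO and was at least 1.86-fold higher there, with its dim side held at the lowest signal marked as well above background. Penk, of the enkephalins, was measured only on the array labelled Villin-Cre and was at least 3.63-fold lower. Nts and Gip were dimmer than this on both arrays. The tachykinin gene Tac1, of enterochromaffin cells and enteric neurons, had probes of opposite sign (-0.26 and 0.44). Sct and Ghrl thus did not go with Sst, Chga and Tph1.

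Among transcription factors of the endocrine lineage, 22 of 25 genes had a value. More than 2-fold lower were 6 (27.3%) and 1 was higher, with a median log2 ratio of -0.20. Over the 13 measured on both arrays the median was -0.57, with 3 lower. Neurod1, which acts below Neurog3 in endocrine differentiation, had 479 in Villin-Cre colon against 187 for EP4 cKO, a log2 ratio of -1.35 ± 0.25. Myt1 had 344 and 125 (-1.46 ± 0.28), and Rfx3 had 543 and 213 (-1.35 ± 0.23). All of these are dim, and after normexp with quantile normalization Neurod1 (-0.68), Myt1 (-0.62) and Rfx3 (-0.73) were within 2-fold, as was the rest of the list on the low side.

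The zinc finger factor Insm1 had 1451 and 828, a log2 ratio of -0.81 ± 0.21, and Pax4 had 213 and 118, a log2 ratio of -0.85 ± 0.32. Nkx2-2, Lmx1a and Onecut2 were measured only on the array labelled Villin-Cre and were at least 2.44-fold, 4.08-fold and 2.66-fold lower. Foxa2 had a log2 ratio of -0.80 and Etv1 of -0.57. Neurog3, the factor that commits cells to the endocrine lineage, was measured only on the array labelled EP4 cKO and gave no fold above 1. Atoh1, which acts above all secretory lineages, had 7803 and 7148 (-0.13 ± 0.20). Hhex, a factor of D cells in the pancreas that is also made in other cells, was the gene past 2-fold in the other direction, with 466 and 1519 (1.70 ± 0.23), while Sst was lower. Of further factors of endocrine cells, Fev had a log2 ratio of 0.05 ± 0.34 and Isl1 of -0.02 ± 0.34, with a bound of 0.64 by its second probe, and Pax6, measured only on the array labelled EP4 cKO, had a bound of 0.36.

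Receptors and channels by which endocrine cells sense the lumen had a value in 14 of 22 genes. More than 2-fold lower were 4 (28.6%) and none was higher, and their median log2 ratio was -0.51. Piezo2, the stretch-activated channel of enterochromaffin cells, had 761 and 198, a log2 ratio of -1.94 ± 0.23, and its second probe gave a bound of -2.65. Olfr78, a receptor of short-chain fatty acids, had 377 and 165 (-1.20 ± 0.27), and the calcium channel gene Cacna1a had 513 and 236 (-1.12 ± 0.23, with -1.13 and -0.61 by its other probes). Gpr119, the receptor by which L cells sense lipid amides, had 1020 in Villin-Cre colon against was not well above background for EP4 cKO (24.5), so that it was at least 17.6-fold lower by its single probe. Other sensors of L cells differed less: Ffar4 had -0.53 ± 0.21, Ffar3 -0.29 ± 0.24, Ffar2 0.15 ± 0.22 and Gpbar1 0.11 ± 0.22. The sensors past 2-fold thus include genes of enterochromaffin cells and of L cells. After normexp with quantile normalization only Gpr119 (-1.86) and Piezo2 (-1.02) stayed past 2-fold.

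On the receiving side, 13 of 22 genes for receptors, uptake and breakdown of endocrine products had a value, with a median log2 ratio of -0.32, 3 more than 2-fold lower and none higher. Sstr1, a receptor of somatostatin, had 2621 and 718, a log2 ratio of -1.87 ± 0.21, whereas Sstr5 had 10075 and 10233, a log2 ratio of 0.02 ± 0.20. The serotonin receptor gene Htr4 had 2992 and 1484 (-1.01 ± 0.21, and -0.45 by its second probe). It was within 2-fold with the 75th percentile (-0.85), loess (-0.87), normexp with quantile normalization (-0.84), the trimmed mean over all spots (-0.88) or the mean of its probes (-0.73). Htr7, another serotonin receptor gene, was measured only on the array labelled Villin-Cre and was at least 4.04-fold lower. Npy1r, a receptor of peptide YY, had -0.77 ± 0.20 and, by its second probe, -0.14. The serotonin transporter gene Slc6a4, which clears serotonin into epithelial cells, had 3858 and 5870, a log2 ratio of 0.61 ± 0.20. Among receptors of the products of Gcg, Glp2r had 266 and 218, a log2 ratio of -0.29 ± 0.28, with a bound of 1.13 by its second probe, and Glp1r was too dim to be measured on either array. So was Rxfp4, the receptor of insulin-like peptide 5.

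**Figure D5:**
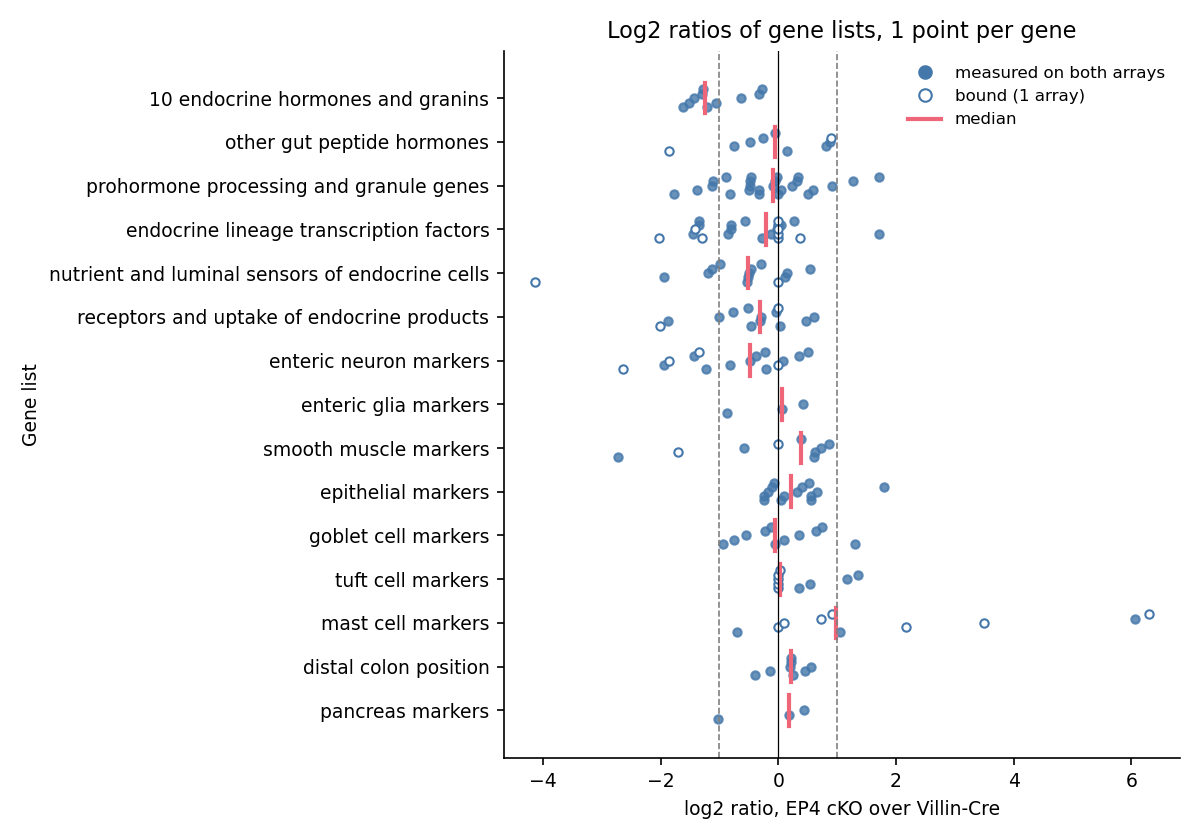
Log2 ratio of EP4 cKO over Villin-Cre for each gene with a value in 15 lists, 1 point per gene, filled where the gene was measured on both arrays and open where it has only a bound; red bars are the medians and dashed lines mark 2-fold. The median of the 10 endocrine genes (-1.25) lies lower than that of each other list, and mast cell markers reach above 6.

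Several of these genes are also made outside the endocrine cells of the colon, so the markers of other cell types are given beside them. Granins and Sst are also made by enteric neurons. Of 27 neuron markers, 15 had a value, 6 were more than 2-fold lower and none higher, with a median log2 ratio of -0.48 and a summed signal of 46746 in Villin-Cre colon against 57674 for EP4 cKO, of which Snap25, also a gene of endocrine granule release, gave 35809 and 50736. Nefm (412 and 108, -1.94 ± 0.30), Uchl1 (1877 and 699, -1.43 ± 0.21) and Map1b (673 and 286, -1.24 ± 0.23) were lower, as were Nefl, Ncam1 and Elavl3 by bounds. Other neuron markers were measured on both arrays and lay within 2-fold, among them Elavl4 (1339 and 757, -0.82 ± 0.21), Tubb3 (568 and 436, -0.38 ± 0.22) and Th (755 and 657, -0.20 ± 0.21), and Prph, Ret, Stmn2, Gap43, Nos1 and Vip were below the mark of well above background on each array. Of 9 glia markers 3 had a value, none past 2-fold, and S100b, Sox10 and Gfap were not well above background. Of 12 smooth muscle markers 9 had a value, 2 were more than 2-fold lower and the median log2 ratio was 0.38. The lower ones were Cnn1, of the calponin of smooth muscle (479 and 72.3, -2.73 ± 0.33), and Myocd by a bound. After normexp with quantile normalization Uchl1 (-1.12) was the only neuron marker past 2-fold. The part of neurons in the lower granin signals was not tested.

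Mast cells also make Tph1. Their markers were higher on the array labelled EP4 cKO in 5 of 10 genes with a value and lower past 2-fold in none, with summed signals of 3987 and 26958, and the mast cell protease gene Mcpt4 had 166 and 11093 and Cma1 had 815 and 1687. Only 3 of the 10 were measured on both arrays, of which Kit had a log2 ratio of -0.71, and 7 only on the array labelled EP4 cKO. The part of mast cells in the Tph1 signal was not tested. Islet cells of the pancreas make Gcg, Sst and Pyy, and of 12 pancreas markers 3 had a value. The elastase gene Cela1 had 323570 and 159109 (-1.02 ± 0.20), within 2-fold after each other scaling but that to the epithelial median. Of the other enzyme genes, Ctrb1 had 184 and 248 (0.43 ± 0.31). Cela2a, Cela3b, Cpa1, Cpb1, Prss2, Pnlip and Amy2a5 were not well above background on either array. Whether the Cela1 signal came from pancreas was not tested. The islet markers Ins1, Ins2 and Iapp were not well above background on either array, whereas the islet and gut hormone gene Ppy had 1178 and 1335 (0.18 ± 0.21). Genes that mark the distal colon, where Insl5 and Pyy are rich, had a value in 8 of 9 genes and a median log2 ratio of 0.21, with none past 2-fold in either direction, and Hoxb13 had 274488 and 248933.

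Epithelial markers did not go with the endocrine genes. All 14 had a value, with a median log2 ratio of 0.21 and summed signals of 3007110 and 3556270, and none was more than 2-fold lower. Cdh1 had 67618 and 62930 (-0.10 ± 0.20), Krt8 had 663603 and 686670 (0.05 ± 0.20), and Krt20, of surface cells, was past 2-fold higher (1.80 ± 0.20). When the median of these markers was set at 0 (chosen after seeing the data), the endocrine genes had a median of -1.46, the same number (7) passed 2-fold, and the ratios were -1.83 for Sst, -1.74 for Chga and -0.49 for Gcg. The difference of the endocrine genes was thus at least as large relative to the epithelial markers as relative to the whole array.

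The other secretory lineages gave different values. Of 11 goblet cell markers, all with a value, none was more than 2-fold lower and 1, Clca1 (1.31 ± 0.20), was higher, with a median of -0.06. Muc2 had 222068 and 212341 (-0.06 ± 0.20) and Tff3 had 280741 and 167451 (-0.75 ± 0.20). Of 13 tuft cell markers, 9 had a value and none was lower past 2-fold, Avil (1.36 ± 0.24) was higher, and 5 of the 9 were measured only on the array labelled EP4 cKO. Dclk1 was one of these and had 140 and 142. A difference between the lists was not tested, since there is 1 array per genotype.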

How the data were processed

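Per the file headers, the deposited intensity values of the 2 one-colour (Cy3) Agilent mouse arrays were made by the authors with the scanner software, which had subtracted background and spatial trends from the processed signal used here and gave its error. The file headers name Feature Extraction 12.0.3.1 and the submitters' processing notes 11.5.1.1. Genotypes were taken from the labels. The members and gene lists were chosen with earlier results of these data known.

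Control spots were left out, as were outlier spots of either array (147 for Villin-Cre and 126 for EP4 cKO), spots of a probe were averaged, and each array was brought to a mean signal of 2500 computed without 2% at each end (factors 3.45 and 2.68). Accessions matched the RefSeq table of GRCm38.p6 for 32984 of 56593 probes. Array coordinates refer to an older build and were not used. The probe with the highest mean signal stood for a gene. Where only 1 array was well above background, the other took whichever was higher, its signal or the lowest one marked as well above background there (125 and 57.8), and a bound not above 1 was counted as 0.

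No test was possible. Every list was described by counts and medians, and named genes were the 10 members, Ptger4, and up to 4 genes per direction and list past 2-fold on both arrays. Other genes were singled out after their values were seen. Other scalings, background correction, filters, probe choice and thresholds were tried as alternatives. The ratio step was tested on simulated data. Ratios were computed in Python 3.11.15 (pandas 2.3.3, numpy 2.4.6), loess in statsmodels 0.14.6 and normexp in limma 3.58.1 (R 4.3.3), and figures were drawn with matplotlib 3.10.9. The number of arrays limits the precision. Values of some list genes are not reported here.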

Additional observations from a re-analysis of the deposited data

How the results depend on the processing

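No paired analysis was possible because there is 1 array per genotype, and no array could be left out. Of the 10 genes, the number more than 2-fold lower was 7 as reported, with only genes measured on both arrays, with no filter on dim probes (31.7% of all genes lower), with the mean of all probes and with the epithelial median at 0 (12.05%), and 6 with scaling to the 75th percentile, loess or the trimmed mean over all spots. It was 4 after normexp (offset 50, on median signals since no mean signal is in the table) with quantile normalization, 0 with scaling to the E1A spots, 8 at 1.5-fold and 1 (Sst) at 3-fold, where 2.79%, 1.93%, 18.7% and 3.73% of all genes were lower. None was more than 2-fold higher in any of these. The settings of filter and probe choice could not change the count. Each of the 10 genes had 1 probe with a ratio, and it was measured on both arrays. The medians of the granins and of the hormones with Tph1 were -1.06 and -1.12 with the 75th percentile, -1.15 and -1.07 after loess (span 0.3), -0.71 and -0.70 after normexp with quantile normalization, -1.09 and -1.15 with the trimmed mean over all spots, -0.042 and -0.10 with E1A scaling, and -1.43 and -1.49 with the epithelial median at 0. With E1A scaling Scg5 turned from lower to 0.11, and the shift of all genes by 1.18 accounts for this. E1A and epithelial scaling were chosen after seeing the data. Signal over background limits Tph1 to 1 of 3 probes and leaves 7 of the 16 other hormones with a probe without a value.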
